A study of Mus musculus with 11 samples.

Results

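The 10 reactive astrocyte genes described here were taken by gene symbol from a table of 22377 genes measured in mouse hippocampus, and each symbol matched 1 row. They comprise the intermediate filament genes Gfap, Vim and Nes, the secreted protein genes Lcn2, Serpina3n, Thbs4, Lgals3bp and Chil1, and the genes Fabp7 and Cd44. All 10 were among the 16057 genes tested, which had a mean of at least 1 CPM (the reads of a gene scaled to a common library total). In photothrombosis brains all 10 averaged higher on the infarcted side, and 9 of them had their largest side difference at 7 days without the drug levetiracetam. With 1 library per group, no member passed the test of side over all genes.

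Astrocytes near an injury take on a reactive state: they enlarge, build more intermediate filaments and release proteins that act on iron, proteases, synapses and the matrix. Cytokines of the interleukin-6 family drive part of this programme through the transcription factor STAT3. In the hippocampus Gfap is also expressed by resting astrocytes, Nes by the stem cells of the dentate gyrus, and Vim and Cd44 by several other cell types, among them vascular and immune cells.

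The libraries were made by CAGE (cap analysis of gene expression, which reads the capped 5′ ends of RNA) from whole hippocampus of male C57BL/6N mice. In the photothrombosis (PT) groups rose bengal at 35 mg/kg and 565 nm LED light for 30 min on a circle 3.5 mm wide were applied to the left parietal region, which occludes vessels of the cortex. The PT conditions were PT 7 d LEV, PT 7 d, PT 1 m LEV, PT 1 m and PT 2 m LEV withdrawn, each with 1 library from the infarcted side and 1 from the non-infarcted side, beside 1 naive, untreated library. The drug levetiracetam (LEV) is a seizure medicine whose target is the vesicle protein SV2A. In the series text it was supplied at 5 mg/mL in drinking water for 2 weeks, starting 1 month after PT. Its dose, duration and timing in the PT 7 d LEV animals are therefore not given. How 2 weeks of LEV from 1 month fit the 1 m label of PT 1 m LEV is not stated. Withdrawal lasts 2 weeks in the labels and 1 week in the series text. Every non-infarcted library came from a PT brain, while the labels leave unstated whether the 2 sides of a condition share animals, how many mice a library pools, and whether these were 8 to 10 or 65 to 85 weeks old, the 2 age ranges of the series.

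Library totals ran between 13382623 and 22377376 reads, of which 93.0% to 96.1% lay in listed genes. Markers of hippocampal principal neurons were present throughout, with Neurod6 at 96.4 to 171 CPM and Prox1 at 46.1 to 68.0 CPM, and so were all 15 general astrocyte markers, with Slc1a2 at 1237 to 1507 CPM. Choroid plexus markers summed to between 56.5 and 4866 CPM over the infarcted and between 104 and 3963 CPM over the non-infarcted libraries. Within pairs the sides were unequal. The median log2 difference of CPM + 1, infarcted minus non-infarcted, of these 10 markers was 0.29 in PT 7 d LEV and 0.05 in PT 7 d. It was 2.06 in PT 1 m LEV, -1.74 in PT 1 m and 1.63 in PT 2 m LEV withdrawn. The part of that tissue in the results was not tested. The 7 d and 2 m libraries stood apart from the 1 m and naive libraries, all lying above them for 11.9% of genes and all below them for 6.81%, but for 0 of the 10 members in either direction. In bulk RNA of this kind, more cells of a type and more RNA per cell cannot be told apart. Error bars for single libraries are 95% Poisson intervals, the intervals of ratios between single libraries are exact binomial ones, and both cover counting error only.

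**Figure D1:**
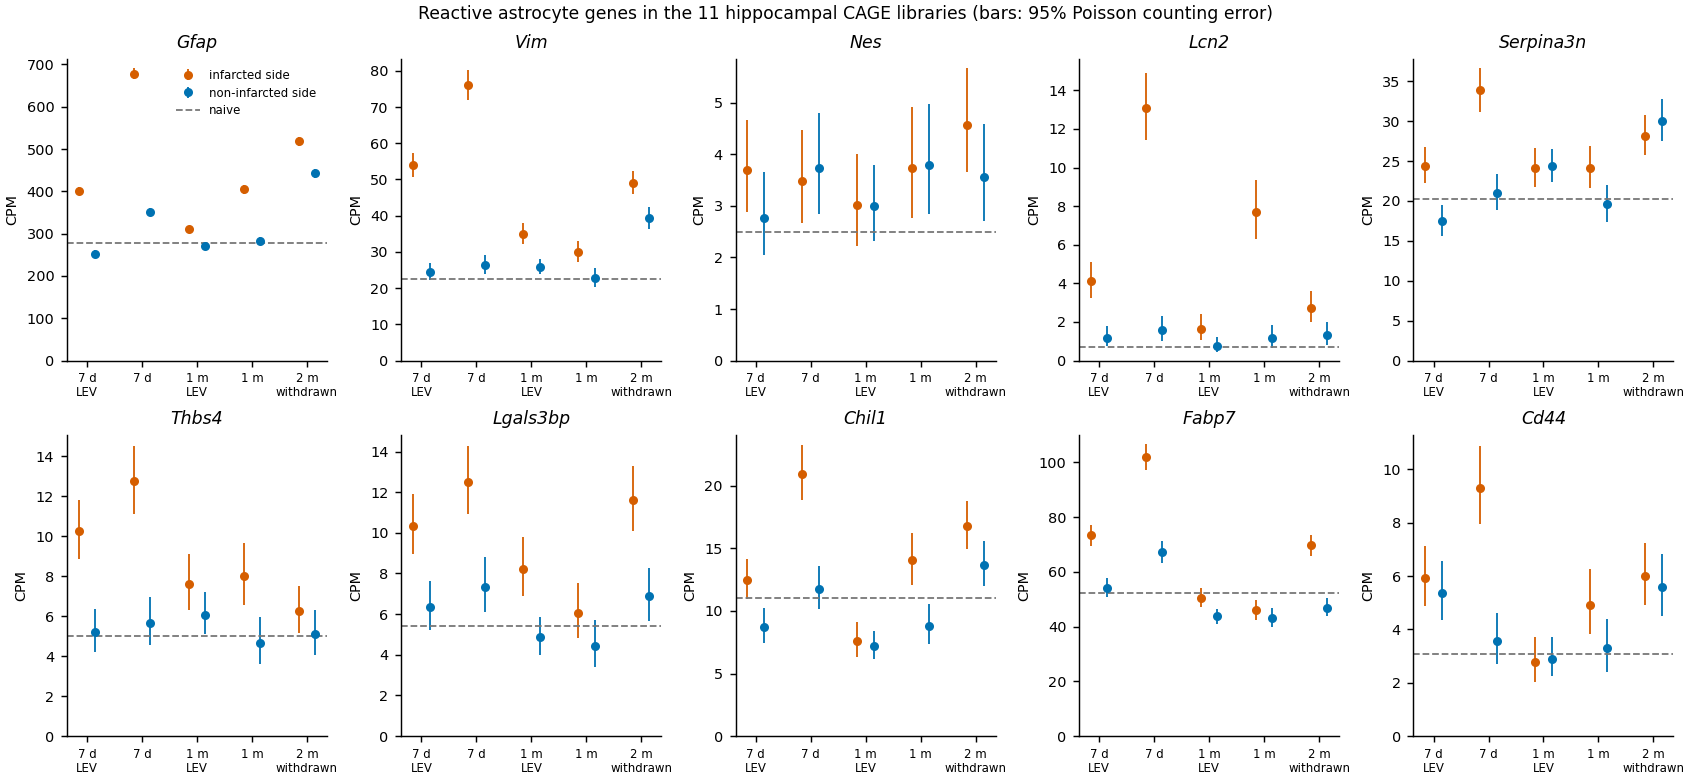
CPM of the 10 genes (y axis, from 0) in the 5 PT conditions (x axis), with the infarcted side in orange, the non-infarcted side in blue, bars for the 95% Poisson interval and a dashed line at the naive library. The PT 7 d infarcted library is the highest for 9 of the 10 genes, with Gfap at 678 CPM and Vim at 76.0 CPM, while the Nes intervals overlap between sides in every condition.

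CAGE counts 5′ ends, and promoters at 3 annotated starts are shown, which need not be the starts behind these values. They are those of Gfap and Vim, the members with a motif match, and that of Lcn2, the member with the largest side difference. They are 300 bases long on the gene's strand, with 250 before and 50 after the start, from RefSeq on GRCm38.p6. All 10 members matched a RefSeq promoter. Capitals mark a match of 1 of 3 motifs searched on both strands: TTCNNNGAA, the core of STAT sites, TGANTCA, a pattern wider than the AP-1 site it includes, and TATAAA, the TATA box.
Gfap, chr11:102897151-102897450, minus strand: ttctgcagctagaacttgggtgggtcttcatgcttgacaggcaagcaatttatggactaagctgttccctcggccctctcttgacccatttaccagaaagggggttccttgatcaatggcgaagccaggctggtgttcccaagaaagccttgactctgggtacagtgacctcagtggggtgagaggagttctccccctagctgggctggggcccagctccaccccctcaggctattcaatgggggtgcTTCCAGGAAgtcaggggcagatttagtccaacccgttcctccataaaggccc
Vim, chr2:13574061-13574360, plus strand: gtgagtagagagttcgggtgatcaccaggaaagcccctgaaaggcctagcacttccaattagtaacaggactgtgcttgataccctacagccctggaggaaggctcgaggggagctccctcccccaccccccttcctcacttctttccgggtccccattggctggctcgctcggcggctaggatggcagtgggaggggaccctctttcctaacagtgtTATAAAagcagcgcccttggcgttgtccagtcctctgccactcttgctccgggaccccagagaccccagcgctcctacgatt
Lcn2, chr2:32387690-32387989, minus strand: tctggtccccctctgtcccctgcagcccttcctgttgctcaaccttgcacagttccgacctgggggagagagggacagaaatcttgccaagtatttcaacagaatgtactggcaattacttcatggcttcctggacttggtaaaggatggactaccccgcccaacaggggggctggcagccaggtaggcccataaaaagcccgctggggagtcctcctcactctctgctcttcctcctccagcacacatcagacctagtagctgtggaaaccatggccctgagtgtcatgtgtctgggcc
Gfap held 1 STAT core, starting at position -2 from the annotated start, and Vim held a TATA box at position -32. Among 32851 RefSeq promoters of this length, 8.298% held the STAT core, 7.808% the pattern TGANTCA and 13.616% the TATA box. The other 8 members, Lcn2 included, held none of these letters in this window. All 3 windows shown lie inside the GENCODE span of their gene, which begins further upstream (Gfap at 102900912, Vim at 13573927 and Lcn2 at 32388252). The table gives 1 value per gene, so the start sites used within each gene were not analysed here.

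The comparison of sides asks what the hippocampus on the side of the infarct expressed beyond that of the other side. Over the 5 pairs of libraries all 10 members had a log2 difference above 0, against 59.4% of all genes tested, with a median of 0.48 against 0.02 for all genes. In all 5 pairs 7 of the 10 stood higher on the infarcted side (Gfap, Vim, Lcn2, Thbs4, Lgals3bp, Chil1 and Fabp7), against 5.26% of genes. The members were chosen with earlier results of these data known, so shares set against all genes, here and below, are descriptions only. Log2 differences here are of CPM + 1, with SE, from limma with condition as a block. No member passed an adjusted p of 0.05 and neither did any gene (0.0% called), while 9 members and 1221 genes had an unadjusted p under 0.05 in limma.

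Gfap, the main filament protein of astrocytes (ENSMUSG00000020932.14, GRCm38 chromosome 11, 102887336 to 102900912), was measured with the most reads of the 10. Gfap on the infarcted side stood at 401 CPM in PT 7 d LEV, 678 CPM in PT 7 d, 309.8 CPM in PT 1 m LEV, 405 CPM in PT 1 m and 518 CPM in PT 2 m LEV withdrawn. Gfap on the non-infarcted side stood at 253 CPM in PT 7 d LEV, 352 CPM in PT 7 d, 272 CPM in PT 1 m LEV, 282 CPM in PT 1 m and 442 CPM in PT 2 m LEV withdrawn, and the naive library had 277 CPM. Within each condition the infarcted side was higher, but the groups overlapped, since PT 2 m LEV withdrawn on the non-infarcted side (442 CPM) exceeded 3 of the infarcted libraries. The limma difference was 0.51 (SE 0.09, adjusted p = 0.248). The CPM ratio of infarcted to non-infarcted was 1.14 in PT 1 m LEV (95% counting interval 1.10 to 1.18) and 1.93 in PT 7 d (1.87 to 1.99). Gfap overlaps the gene Gm26668 on the other strand. No other row held the same reads as Gfap, and whether any reads of Gm26668 were counted for Gfap was not tested.

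Vim encodes vimentin, the filament that reactive and immature astrocytes build beside Gfap. Vim on the infarcted side had 53.9 CPM in PT 7 d LEV, 76.0 CPM in PT 7 d, 34.9 CPM in PT 1 m LEV, 30.0 CPM in PT 1 m and 49.2 CPM in PT 2 m LEV withdrawn. Vim on the non-infarcted side had 24.6 CPM in PT 7 d LEV, 26.5 CPM in PT 7 d, 25.9 CPM in PT 1 m LEV, 22.9 CPM in PT 1 m and 39.3 CPM in PT 2 m LEV withdrawn, beside 22.4 CPM in the naive library. The infarcted libraries of PT 7 d LEV, PT 7 d and PT 2 m LEV withdrawn stood above every non-infarcted one, and the groups overlapped only through the PT 2 m LEV withdrawn non-infarcted library. The limma difference between sides was 0.74 (SE 0.14, adjusted p = 0.318). The side ratio of CPM was 1.31 (1.13 to 1.52) in PT 1 m and 2.87 (2.57 to 3.21) in PT 7 d.

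Nes, which encodes nestin, a filament protein of neural stem cells and of some reactive astrocytes, had the smallest side difference of the 10. Its infarcted libraries ran between 3.02 and 4.58 CPM and its non-infarcted libraries between 2.77 and 3.80 CPM, with 2.50 CPM in the naive library. The side difference was 0.10 (SE 0.11, adjusted p = 0.857), with a 95% interval of -0.13 to 0.34. Nes rested on 35 to 84 reads per library, and the side ratio's counting interval included 1 in every condition, so a side difference of Nes was not detectable at this depth within any pair.

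Among the secreted members, Lcn2 (lipocalin 2, which binds iron-carrying siderophores and is released by reactive astrocytes) had the largest side difference. Lcn2 on the infarcted side had 4.11 CPM in PT 7 d LEV, 13.1 CPM in PT 7 d, 1.64 CPM in PT 1 m LEV, 7.70 CPM in PT 1 m and 2.72 CPM in PT 2 m LEV withdrawn. Lcn2 on the non-infarcted side had 1.19 CPM in PT 7 d LEV, 1.56 CPM in PT 7 d, 0.760 CPM in PT 1 m LEV, 1.15 CPM in PT 1 m and 1.31 CPM in PT 2 m LEV withdrawn, and the naive library had 0.714 CPM from 10 reads. Every infarcted library lay above every non-infarcted one, the lowest infarcted value being 1.64 CPM and the highest non-infarcted 1.56 CPM, whose counting intervals overlapped. The difference was 1.40 (SE 0.24, adjusted p = 0.245 in limma). The side ratio was 2.15 in PT 1 m LEV (1.13 to 4.23), 6.71 in PT 1 m (3.94 to 12.2) and 8.40 in PT 7 d (5.55 to 13.3).

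Thbs4 encodes thrombospondin 4, a matrix protein that astrocytes release after injury. Thbs4 and Lcn2 were the 2 of 10 members with every infarcted library above every non-infarcted one, against 0.212% of genes. Thbs4 on the infarcted side had 10.2 CPM in PT 7 d LEV, 12.7 CPM in PT 7 d, 7.62 CPM in PT 1 m LEV, 8.00 CPM in PT 1 m and 6.27 CPM in PT 2 m LEV withdrawn, against 4.66 to 6.08 CPM over the 5 non-infarcted libraries and 5.00 CPM in the naive one. The 7 d libraries of the infarcted side were the highest, and the difference was 0.62 (SE 0.12, adjusted p = 0.318 in limma).

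Lgals3bp, which encodes a secreted glycoprotein that binds galectin-3, had a side difference of similar size in 4 of the 5 conditions. Infarcted libraries held 10.4 CPM in PT 7 d LEV, 12.5 CPM in PT 7 d, 8.24 CPM in PT 1 m LEV, 6.05 CPM in PT 1 m and 11.6 CPM in PT 2 m LEV withdrawn. Non-infarcted libraries held 6.33 CPM in PT 7 d LEV, 7.35 CPM in PT 7 d, 4.87 CPM in PT 1 m LEV, 4.45 CPM in PT 1 m and 6.88 CPM in PT 2 m LEV withdrawn, with 5.43 CPM in the naive library. PT 1 m was the lowest condition on both sides and had the smallest log2 difference, 0.37, while the others ran between 0.63 and 0.69. The limma estimate was 0.61 (SE 0.09, adjusted p = 0.233), the lowest adjusted p of the 10.

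Chil1 encodes a chitinase-like glycoprotein, known in humans as YKL-40, that reactive astrocytes secrete. Infarcted libraries had 12.5 CPM in PT 7 d LEV, 20.97 CPM in PT 7 d, 7.62 CPM in PT 1 m LEV, 14.05 CPM in PT 1 m and 16.8 CPM in PT 2 m LEV withdrawn. Non-infarcted libraries had 8.76 CPM in PT 7 d LEV, 11.8 CPM in PT 7 d, 7.19 CPM in PT 1 m LEV, 8.82 CPM in PT 1 m and 13.7 CPM in PT 2 m LEV withdrawn, beside 11.1 CPM in the naive one. Every pair was higher on the infarcted side, but in PT 1 m LEV by a CPM ratio of only 1.06 (0.829 to 1.35), and the groups overlapped. The limma difference was 0.44 (SE 0.10, adjusted p = 0.339).

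Serpina3n, a secreted inhibitor of serine proteases, differed between sides at 7 d and less at later times. Its infarcted values were 24.4 CPM in PT 7 d LEV, 33.9 CPM in PT 7 d, 24.1 CPM in PT 1 m LEV, 24.1 CPM in PT 1 m and 28.2 CPM in PT 2 m LEV withdrawn. Its non-infarcted values were 17.5 CPM in PT 7 d LEV, 21.1 CPM in PT 7 d, 24.4 CPM in PT 1 m LEV, 19.6 CPM in PT 1 m and 30.0 CPM in PT 2 m LEV withdrawn, with 20.3 CPM in the naive library. The pairs of PT 1 m LEV and PT 2 m lay slightly below 0 (log2 -0.02 and -0.09), the groups overlapped widely, and the difference was 0.26 (SE 0.10, adjusted p = 0.578 in limma). Serpina3n lies in a cluster of closely related genes, so how reads were divided among them is uncertain.

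Fabp7 encodes the brain fatty acid carrier of radial glia and astrocytes, and Cd44 the surface receptor for hyaluronan. Fabp7 on the infarcted side had 73.3 CPM in PT 7 d LEV, 102 CPM in PT 7 d, 50.5 CPM in PT 1 m LEV, 46.0 CPM in PT 1 m and 69.7 CPM in PT 2 m LEV withdrawn. Fabp7 on the non-infarcted side had 54.2 CPM in PT 7 d LEV, 67.1 CPM in PT 7 d, 43.7 CPM in PT 1 m LEV, 43.3 CPM in PT 1 m and 46.9 CPM in PT 2 m LEV withdrawn, and the naive library had 52.1 CPM. Both 7 d libraries were its highest on either side. Cd44 on the infarcted side had 5.93 CPM in PT 7 d LEV, 9.31 CPM in PT 7 d, 2.77 CPM in PT 1 m LEV, 4.93 CPM in PT 1 m and 5.99 CPM in PT 2 m LEV withdrawn. Cd44 on the non-infarcted side had 5.37 CPM in PT 7 d LEV, 3.55 CPM in PT 7 d, 2.90 CPM in PT 1 m LEV, 3.30 CPM in PT 1 m and 5.58 CPM in PT 2 m LEV withdrawn, and the naive library had 3.07 CPM. The groups overlapped for both genes. Fabp7 was higher on the infarcted side in every pair, while for Cd44 the counting interval of the CPM ratio lay above 1 in 2 pairs, PT 1 m (1.49, 1.01 to 2.23) and PT 7 d (2.62, 1.93 to 3.61). The limma differences were 0.38 for Fabp7 (SE 0.07, adjusted p = 0.318) and 0.36 for Cd44 (SE 0.16, adjusted p = 0.643).

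By condition, the median log2 side difference of the 10 members was 0.55 in PT 7 d LEV, 0.86 in PT 7 d, 0.20 in PT 1 m LEV, 0.42 in PT 1 m and 0.28 in PT 2 m LEV withdrawn, while the median of all tested genes lay between -0.0048 and 0.04. In PT 7 d, 9 of 10 members differed by at least 0.50, against 4.19% of genes, and for 9 of 10 the PT 7 d difference was the highest of the 5, against 24.3%. The member outside both counts was Nes, with -0.08 in PT 7 d. The PT 7 d infarcted library was also the highest of the 11 libraries for 9 of 10 members, against 10.3% of genes. These counts all rest on that library.

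The filament and the secreted genes did not separate by side. The filament median was 0.66 in PT 7 d LEV, 0.94 in PT 7 d, 0.19 in PT 1 m LEV, 0.37 in PT 1 m and 0.29 in PT 2 m LEV withdrawn. The secreted median was 0.63 in PT 7 d LEV, 0.78 in PT 7 d, 0.28 in PT 1 m LEV, 0.62 in PT 1 m and 0.27 in PT 2 m LEV withdrawn. The filament median was the higher in 3 conditions and the secreted median in the other 2. Within each set the members spread further than the medians did: in PT 7 d the filament genes ran between -0.08 for Nes and 1.49 for Vim, and the secreted genes between 0.66 for Serpina3n and 2.46 for Lcn2. The difference between the sets was not tested.

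**Figure D2:**
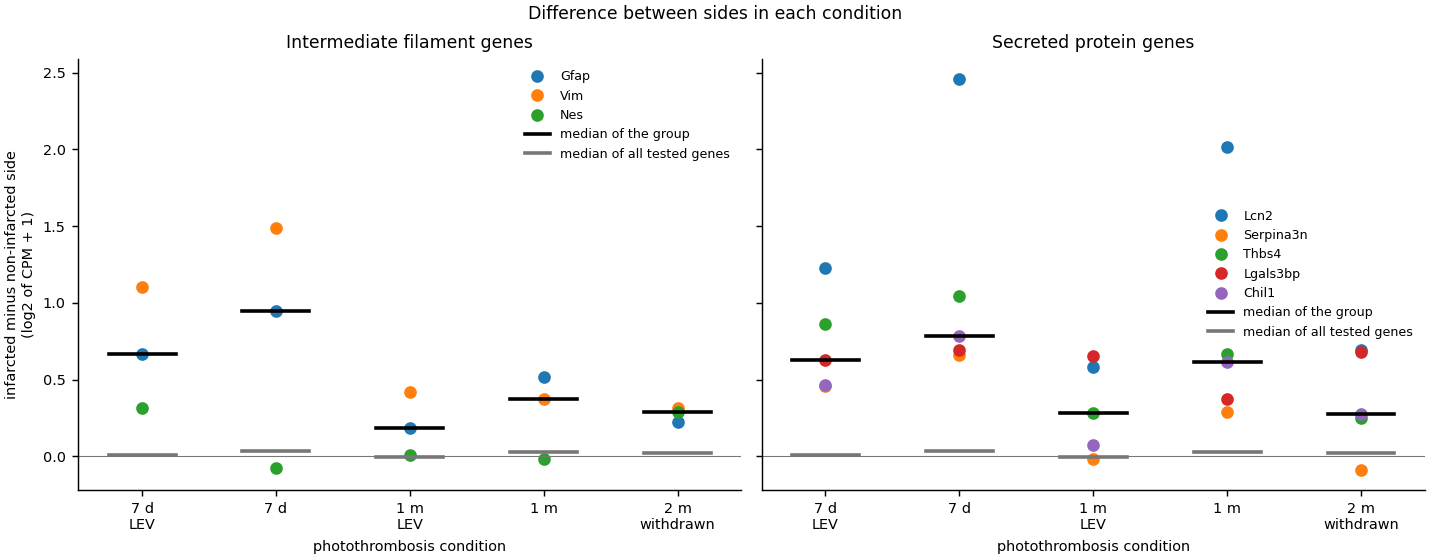
Log2 difference of CPM + 1, infarcted minus non-infarcted side (y axis), in each PT condition (x axis), for the 3 filament genes (left) and the 5 secreted genes (right). Each point is 1 pair of libraries, black bars are the median of the set and grey bars the median of all tested genes. Lcn2 reaches 2.02 in PT 1 m and 2.46 in PT 7 d, and Nes stays between -0.08 and 0.32.

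DESeq2 on the reads recovered from the CPM values called 3 members higher on the infarcted side (Lcn2, adjusted p = 8.81e-06, Fabp7, 0.0220, and Lgals3bp, 0.0373) and 14 genes in all, while edgeR's quasi-likelihood test called 0 genes, with 1295 at an unadjusted p under 0.05. Without the PT 1 m pair, limma called Vim (0.83), Lgals3bp (0.66) and Fabp7 (0.45) among 50 genes.

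The comparison of times asks how the values at 1 m differed from those at 7 d, over the PT conditions with and without LEV. All 10 members had a limma difference below 0, against 59.2% of genes, and 6 of 10 fell at an adjusted p under 0.05, against 10.1% of genes called lower and 15.8% called in either direction. Fabp7 fell by 0.65 (SE 0.13, adjusted p = 0.00145), Cd44 fell by 0.62 (SE 0.16, 0.0131) and Lcn2 fell by 0.55 (SE 0.17, 0.0308). Lgals3bp fell by 0.54 (SE 0.16, 0.0212), Vim fell by 0.51 (SE 0.13, 0.0108) and Chil1 fell by 0.46 (SE 0.14, 0.0295). In all 4 pairs of libraries 5 of 10 members were lower at 1 m, against 29.3% of genes, and of the called members Vim was the 1 that was not, with 0.07 between the non-infarcted LEV libraries.

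Fabp7 was the only 1 of 10 members with every 1 m library below every 7 d one, against 19.1% of genes: its 4 libraries at 1 m lay between 43.3 and 50.5 CPM, and its 4 libraries at 7 d between 54.2 and 102 CPM. The differences of Gfap (-0.33, SE 0.13, adjusted p = 0.0931), Thbs4 (-0.26, SE 0.15), Serpina3n (-0.03, SE 0.14) and Nes (-0.01, SE 0.17) did not pass. The 95% interval of Nes ran from -0.36 to 0.33 and that of Serpina3n from -0.32 to 0.25. By set, 1 of 3 filament genes and 3 of 5 secreted genes were called lower, with a median of -0.33 for the filament and -0.46 for the secreted genes, against -0.06 for all genes.

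Choroid plexus markers summed to 56.5 to 1805 CPM over the 1 m libraries and 3185 to 4866 CPM over the 7 d libraries, with 4198 CPM in naive and none of the 10 genes at 0. The 14 microglia markers summed to 672 to 794 CPM over the 1 m libraries and 629 to 1458 CPM over the 7 d libraries. By count, limma called lower at 1 m all 10 choroid plexus markers (median -2.15), 9 of 10 tested markers of activated phagocytes (median -1.05), 5 of 7 of ependyma (median -0.53), 4 of 10 of endothelium (median -0.29), 4 of 14 of microglia (median -0.23) and 3 of 15 of general astrocytes (median -0.18). Called higher at 1 m were Glul of the general astrocyte markers (0.46, limma adjusted p = 0.0105) and Flt1 of the endothelial ones (0.55, 0.00472). So were Hbb-bs of the red blood cell markers (0.67, 0.00717) and 3 of 8 neuron markers. The part of these cells in the time differences was not tested. The comparison of 1 m with 7 d also runs along the split of 7 d and 2 m from 1 m and naive libraries, and cannot be told apart from it.

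These time calls depended on the scaling and on the test. With TMM scaling, which sets libraries by the bulk of their genes, 0 members were called, and over all genes 185 were higher and 149 lower, against 917 higher and 1620 lower on the deposited scale. edgeR called 0 members, and DESeq2 called Vim and Fabp7. Leaving out 1 library leaves the mean of its condition on the other side, which by construction adds part of the side difference to the time difference. Fabp7 stood at -0.50 without the PT 7 d infarcted library. Such fits cannot show whether the time calls rest on single libraries.

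**Figure D3:**
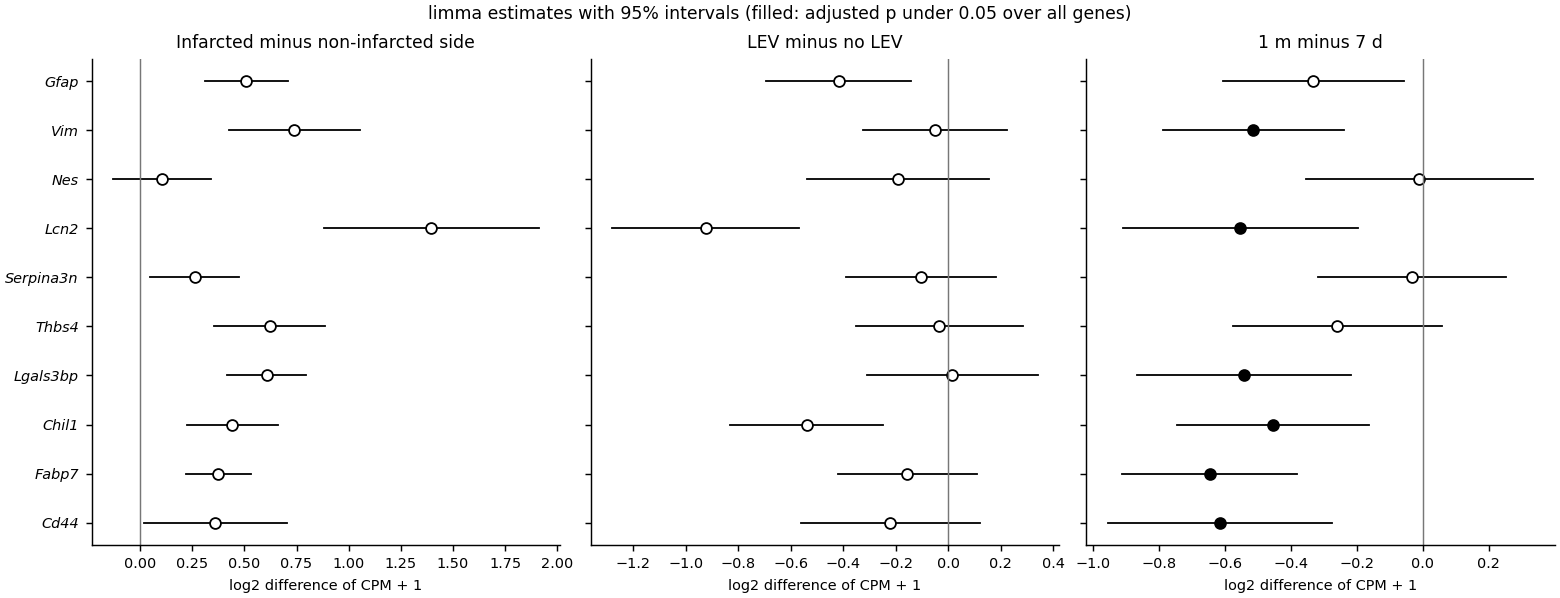
limma estimates for the 10 genes (rows) with 95% intervals: infarcted minus non-infarcted side (left), LEV minus no LEV (middle) and 1 m minus 7 d (right), as log2 differences of CPM + 1 (x axes). Filled points had an adjusted p under 0.05 over all genes, which 6 genes had for time and none for side or LEV.

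Whether the side difference itself changed with time was tested on the 4 within-condition differences of PT 7 d LEV, PT 7 d, PT 1 m LEV and PT 1 m. It was smaller at 1 m than at 7 d for all 10 members, against 55.0% of genes below 0, but limma called 0 members and 0 genes (0.0%), with 5 members and 877 genes at an unadjusted p under 0.05. Vim had the largest such value, -0.90 (SE 0.15, adjusted p = 0.504): its side difference was 0.42 in PT 1 m LEV and 0.37 in PT 1 m, against 1.10 in PT 7 d LEV and 1.49 in PT 7 d. Lcn2 had -0.54 (SE 0.50), since its side difference was 0.58 in PT 1 m LEV and 2.02 in PT 1 m, against 1.22 in PT 7 d LEV and 2.46 in PT 7 d.

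The drug comparison asks how LEV groups differed from groups without LEV at 7 d and 1 m. The limma difference was below 0 for 9 of 10 members, against 54.4% of genes, and Lcn2, Chil1 and Gfap were lower with LEV in all 4 pairs, a share of 3 of 10 against 12.4% of genes. No member passed an adjusted p of 0.05, where 3 genes did (0.0187%). Hbb-bs, a marker of red blood cells, was among the 3 (-1.02, SE 0.16, adjusted p = 0.0351 in limma). The 7 markers of neutrophils and red blood cells summed to 16.7 to 52.3 CPM with LEV and 44.8 to 66.0 CPM without. Of the 4 tested, 2 had a LEV difference above 0 and 2 below. Their part in the values of the members was not tested. Lcn2 had -0.92 (SE 0.17, adjusted p = 0.0706), Chil1 -0.54 (SE 0.14, 0.497) and Gfap -0.42 (SE 0.13, 0.685).

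For Lcn2 most of this lay on the infarcted side. On that side the CPM with LEV was 0.213 of that without LEV at 1 m (0.133 to 0.330), from 26 reads with LEV and 103 without, and 0.314 of it at 7 d (0.240 to 0.407), from 79 reads with LEV and 229 without. On the non-infarcted side the ratios were 0.662 (0.314 to 1.40) at 1 m and 0.762 (0.406 to 1.42) at 7 d, so a difference there was not detectable at this depth. The test of the LEV difference between sides gave -1.34 for Lcn2 (SE 0.30, adjusted p = 0.528) and -0.79 for Cd44 (SE 0.28, 0.908), and limma called 0 of 10 members and 0 genes (0.0%), with 2 members and 817 genes at an unadjusted p under 0.05. Of the members 8 had a value below 0 in this test, against 59.8% of genes. All 10 choroid plexus markers had a value above 0 (median 2.03), and the part of that tissue was not tested.

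Chil1 with LEV stood at 0.542 of its CPM without LEV on the infarcted side at 1 m (0.428 to 0.685) and at 0.595 at 7 d (0.504 to 0.702), and on the non-infarcted side at 0.815 at 1 m (0.641 to 1.04) and at 0.744 at 7 d (0.598 to 0.925). Gfap with LEV stood at 0.765 on the infarcted side at 1 m (0.736 to 0.796) and at 0.592 at 7 d (0.575 to 0.609), and on the non-infarcted side at 0.963 at 1 m (0.925 to 1.00) and at 0.719 at 7 d (0.691 to 0.748). For Cd44 the sides went apart at 7 d, with 0.637 (0.497 to 0.814) on the infarcted and 1.51 (1.08 to 2.14) on the non-infarcted side. The remaining 6 members had limma differences between -0.19 (Nes) and 0.01 (Lgals3bp), each with a 95% interval that included 0. The interval of Vim ran from -0.33 to 0.22 and that of Lgals3bp from -0.31 to 0.34.

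Taken by time, without a test of the difference between times, the LEV values were as follows. At 1 m the median over the members was -0.15 on the infarcted and -0.02 on the non-infarcted side, and at 7 d it was -0.48 on the infarcted and -0.24 on the non-infarcted side, with the median of all genes between -0.06 and 0.01. At 7 d on the infarcted side 9 of 10 members were lower with LEV, all but Nes (0.07), against 52.9% of genes. All 14 microglia markers (median -0.65) and all 10 tested phagocyte markers (median -1.48) were lower in that pair too. Over both times the 10 phagocyte markers had limma LEV differences below 0 as well, with 0 called, and their part in the values of the members was not tested. At 1 m Vim, Lgals3bp and Fabp7 were higher with LEV on both sides: Vim by 0.21 on the infarcted and 0.17 on the non-infarcted side, Lgals3bp by 0.39 and Fabp7 by 0.13 on the infarcted side, and Lgals3bp by 0.11 and Fabp7 by 0.02 on the non-infarcted side. On the infarcted side the filament median was -0.24 at 1 m and -0.49 at 7 d, and the secreted median -0.06 at 1 m and -0.46 at 7 d. On the non-infarcted side the filament median was -0.05 at 1 m and -0.33 at 7 d, and the secreted median 0.11 at 1 m and -0.23 at 7 d.

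**Figure D4:**
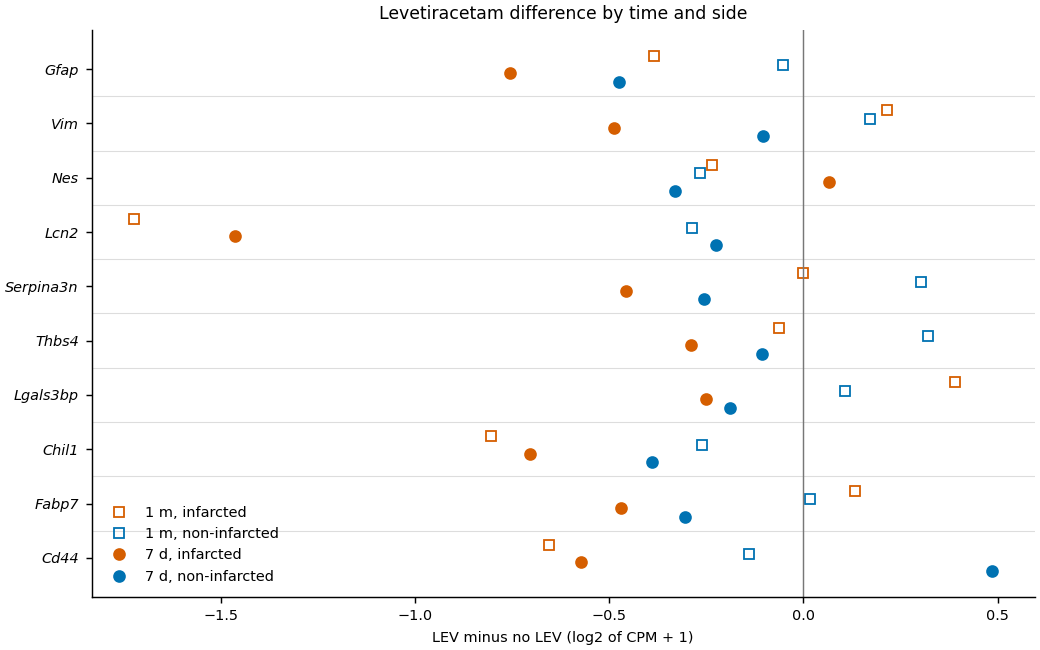
LEV minus no LEV as log2 difference of CPM + 1 (x axis) for each gene (rows), at 1 m (open squares) and 7 d (filled circles), on the infarcted (orange) and non-infarcted (blue) side. Each symbol compares 1 library with 1 other. On the infarcted side Lcn2 lies at -1.72 at 1 m and -1.46 at 7 d, and Vim, Lgals3bp and Fabp7 lie right of 0 at 1 m and left of it at 7 d.

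The Lcn2 value turned on the infarcted libraries. limma called it on the infarcted side alone (-1.59, adjusted p = 0.00976), and its adjusted p over all alternatives ran between 0.00793 and 0.955. Leaving out 1 infarcted library leaves the mean of that condition on its lower non-infarcted side, which by construction makes the difference more negative without a LEV library (-1.23 without PT 7 d LEV infarcted and -1.07 without PT 1 m LEV infarcted) and less negative without a library of the groups without LEV (-0.31 without the infarcted PT 7 d library and -0.42 without the infarcted PT 1 m one). These 4 values say nothing about LEV.

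No test was possible against the single naive library or for withdrawal, so values are given. Ratios of 7 d and 2 m libraries to naive also run along the split of 7 d and 2 m from 1 m and naive libraries. They cannot be told apart from it. The naive library lay below all 5 infarcted libraries for 7 of 10 members, against 14.8% of genes, and below all 5 non-infarcted libraries for 3 of 10 (Vim, Nes and Lcn2), against 14.8%. For these 3 of 10 the naive library was the lowest of all 11, against 8.3% of genes. Part of this ranking lay within counting error. The Nes interval of the ratio to naive included 1 in every PT library except PT 2 m LEV withdrawn infarcted. On the non-infarcted side that of Lcn2 included 1 in all conditions but PT 7 d (2.18, 1.01 to 5.09). That of Vim included 1 there in PT 7 d LEV and PT 1 m. On the infarcted side Lcn2 in PT 7 d stood at 18.3 times its naive CPM (9.78 to 38.7, on 10 naive reads), Vim at 3.39 times (2.997 to 3.85), Cd44 at 3.03 times (2.16 to 4.35) and Gfap at 2.45 times (2.36 to 2.54). On the non-infarcted side of PT 7 d the ratio to naive was 1.27 for Gfap (1.22 to 1.32), 1.18 for Vim (1.02 to 1.37) and 1.29 for Fabp7 (1.17 to 1.42). Chil1 stood below naive in PT 1 m LEV on both sides, at 0.688 (0.538 to 0.878) on the infarcted and 0.650 (0.518 to 0.816) on the non-infarcted side.

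Values were higher in PT 2 m LEV withdrawn than in PT 1 m LEV on both sides for 9 of 10 members, all but Thbs4, against 50.0% of genes. The median log2 difference was 0.48 on the infarcted and 0.41 on the non-infarcted side, against 0.13 and 0.09 for all genes. Chil1 differed by 1.05 and 0.84 on these sides, Cd44 by 0.89 and 0.75, Gfap by 0.74 and 0.70, and Thbs4 by -0.25 and -0.21. Gfap of PT 2 m LEV withdrawn was above naive on both sides, at 1.87 times (1.80 to 1.94) on the infarcted and 1.60 times (1.54 to 1.66) on the non-infarcted side. Time since PT and drug withdrawal changed together here and cannot be told apart, and the markers of several cell types differed too. On the infarcted side the median difference was 0.58 for 15 general astrocyte markers, 0.83 for 10 endothelial markers, 1.24 for 11 markers of pericytes, smooth muscle and fibroblasts, 1.23 for 10 choroid plexus markers and -0.45 for 4 markers of neutrophils and red blood cells. On the non-infarcted side it was 0.39 for general astrocyte, 0.56 for endothelial, 1.55 for pericyte, smooth muscle and fibroblast, 1.75 for choroid plexus and -1.54 for neutrophil and red blood cell markers. Their part in the values of the members was not tested.

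Among 20 other reactive astrocyte genes that were tested, of 30 listed, 18 had a side difference above 0 with a median of 0.33, and limma called 0, with 8 at an unadjusted p under 0.05. The smallest p values were those of C4b, a complement protein (0.53, SE 0.09, adjusted p = 0.245), and Ggta1, a galactosyltransferase (0.39, SE 0.12). Unlike that of the members, the list's median side difference was -0.02 in PT 1 m, beside 0.51 in PT 7 d. At 1 m, 4 of the 20 fell: Tm4sf1, a membrane protein (-0.57, adjusted p = 0.0119), S1pr3, a sphingosine phosphate receptor (-0.52, 0.0236), Srgn, a proteoglycan core (-0.43, 0.0484), and S100a10 (-0.39, 0.0315). These 4 stand beside 10.1% of all genes called lower (1620 genes), where TMM scaling called 149 genes lower. With LEV the list's median was -0.01 and limma called 0.

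Of 16 cytokine and transcription genes tested, 14 were above 0 by side with a median of 0.11, led by Tgfbr2, a TGF-beta receptor (0.39, SE 0.07, adjusted p = 0.315), and Cntf, a cytokine of the interleukin-6 family (0.64, SE 0.14, 0.339). Socs3, the feedback inhibitor of STAT3 signalling, had a LEV difference of -0.54 (SE 0.18, adjusted p = 0.713), and limma called 0 of this list for LEV. By time, Jak2, the kinase of cytokine receptors, rose (0.56, adjusted p = 0.00388), and Nfia, Nfkbia and Rela fell by 0.43, 0.44 and 0.39. Among 7 tested partners that bind the members' proteins, Lgals3, the galectin bound by Lgals3bp, had a side difference of 0.97 (SE 0.28, adjusted p = 0.418), and Lgals3 and Spp1, a Cd44 ligand, fell at 1 m by 1.39 (adjusted p = 2.87e-05) and 1.03 (0.00119).

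All 14 microglia markers were above 0 by side (median 0.37), with medians of 0.42 in PT 7 d LEV, 1.06 in PT 7 d, 0.20 in PT 1 m LEV, 0.16 in PT 1 m and 0.10 in PT 2 m LEV withdrawn. The summed level of that list was 751.7 to 1458 CPM over the infarcted libraries and 629 to 750.6 CPM over the non-infarcted ones, with 628 CPM in naive and none of its genes at 0. All 10 tested markers of activated phagocytes were above 0 as well (median 0.92). Their list of 12 summed to 1683 to 2300 CPM over the infarcted and 1364 to 1661 CPM over the non-infarcted libraries, with 1564 CPM in naive, and Itgax was at 0 in at least 1 library. Apoe made up most of that sum, at 1308 to 1962 CPM over the 11 libraries, while the next highest, Lyz2, reached 77.8 CPM. The sum is therefore mainly a level of Apoe. The median side difference of the 10 tested phagocyte markers was 0.07 in PT 1 m and 2.60 in PT 7 d, and with LEV at 7 d their infarcted-side median was -1.48. Lcn2 stood at 2.02 in PT 1 m and 2.46 in PT 7 d. General astrocyte markers were above 0 for 13 of 15, with a median of 0.10, and summed to 3607 to 4848 CPM on the infarcted and 3725 to 4637 CPM on the non-infarcted side. What part these cells had in the values of the members was not tested.

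**Figure D5:**
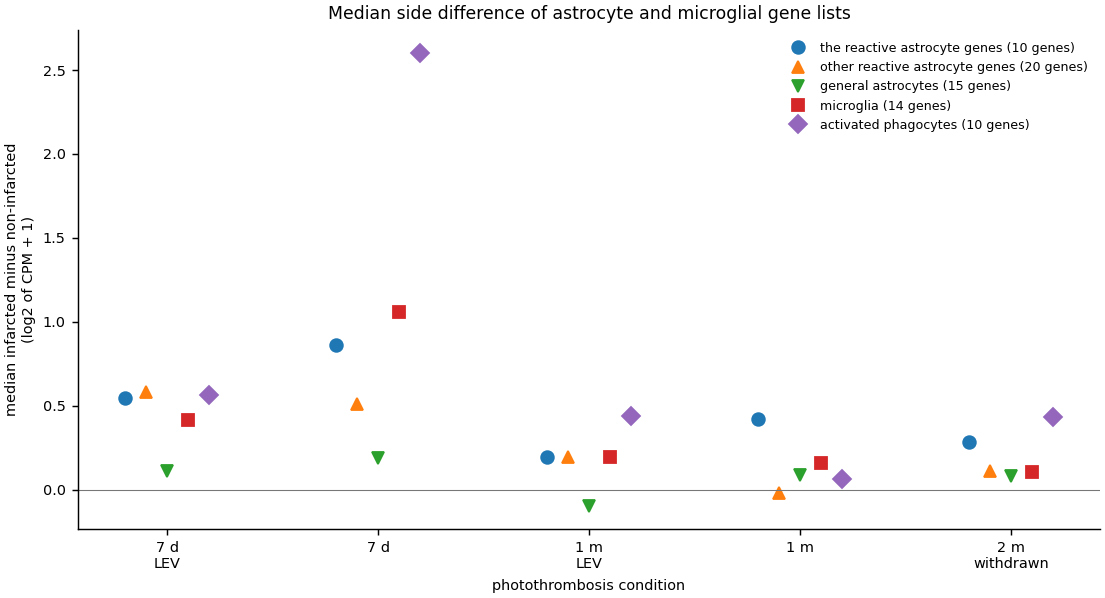
Median log2 difference of CPM + 1, infarcted minus non-infarcted side (y axis), of 5 gene lists in each PT condition (x axis). Phagocyte markers lie at 0.07 in PT 1 m and 2.60 in PT 7 d, the reactive astrocyte genes at 0.42 in PT 1 m and 0.86 in PT 7 d, and general astrocyte markers stay between -0.10 and 0.19.

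Over the 11 libraries the genes most like Gfap among 11568 genes with a mean of at least 5 CPM, by Pearson's r of log2(CPM + 1), were Fcgr3 (r = 0.956), Lcp1 (0.949), S1pr3 (0.941), Pld4 (0.936) and Enpp6 (0.928). For Vim they were Mpeg1 (0.969), Ctss (0.958), Cmtm6 (0.949), Trem2 (0.944) and Ly86 (0.936), and for Lcn2 Cd300c2 (0.920), Csf1r (0.913), Ctsc (0.903), Psmg1 (0.898) and Aif1 (0.891). Among the members, Gfap had r = 0.923 with Chil1, 0.894 with Vim and 0.622 with Nes, and Lcn2 had r = 0.868 with Thbs4 and 0.601 with Serpina3n. These are descriptions over 11 libraries that share the condition, the side and the PT 7 d infarcted library, which is the highest for Gfap, Vim and Lcn2.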

How the data were processed

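The submitters deposited 1 table of CPM per gene for 11 CAGE libraries. The build GRCm38 and the tools HISAT2 2.0.5, DESeq2 1.20.0 and BWA 0.7.17 are named in the submitters' processing notes. The sources used here give neither their roles nor the rule that gave reads to genes. All deposited CPM values were whole reads of the library total (100% within 0.0001), and a count of 0 allows up to 3 reads, or 0.134 to 0.224 CPM. Coordinates come from GENCODE M21, where 21747 of 22377 versioned identifiers matched.

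Tests used limma 3.58.1 in R 4.3.3 on log2(CPM + 1) for genes with a mean of at least 1 CPM, with a variance trend, Benjamini-Hochberg adjustment over 16057 genes and a threshold of 0.05. The side fit took 10 PT libraries, blocked by condition, with 4 residual degrees of freedom. LEV and time were fitted on 4 condition means, both sides averaged since they may share animals (1 residual and 21.59 prior degrees of freedom). Side differences were tested on 4 conditions (2 residual degrees of freedom). With 1 library per group, spread comes from between conditions, and p-values may reflect technical variation. PT 7 d infarcted enters the side, LEV and time comparisons, which share libraries. edgeR 4.0.16 and DESeq2 1.42.0 on the recovered reads, TMM scaling, pseudocounts of 0.5 and 5, no filter on low values, no variance trend and left-out libraries were alternatives. The scripts were tested on simulated data. The members, lists and rules for naming genes were chosen with earlier results of these data known. All 10 members are named. Genes of other lists named with a test result passed, or were among up to 4 others with the smallest p and the same sign in every pair. Not every such gene is printed.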

Additional observations from a re-analysis of the deposited data

Results flagged for a closer look

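Of 30 groups of 5 values examined, 2 held a value far from the other 4, where chance gives about 1 in 20. Vim in PT 2 m LEV withdrawn on the non-infarcted side, at 39.3 CPM, lay above the other non-infarcted libraries, at 22.9 to 26.5 CPM. The Lgals3bp side difference in PT 1 m, at 0.37, lay below the other conditions, at 0.63 to 0.69.

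In 4 cases the 2 library pairs of one condition moved in the opposite direction to those of the other, and for the 3 LEV differences this gap was not tested. Several such comparisons were scanned for every member, so some opposite directions arise by chance. The LEV difference of Vim at 1 m was 0.21 on the infarcted and 0.17 on the non-infarcted side, and at 7 d -0.49 on the infarcted and -0.10 on the non-infarcted side, means that differ by 0.49. That of Lgals3bp at 1 m was 0.39 on the infarcted and 0.11 on the non-infarcted side, and at 7 d -0.25 on the infarcted and -0.19 on the non-infarcted side, a gap of 0.47. That of Fabp7 at 1 m was 0.13 on the infarcted and 0.02 on the non-infarcted side, and at 7 d -0.47 on the infarcted and -0.30 on the non-infarcted side, a gap of 0.46. The side difference of Nes was 0.01 in PT 1 m LEV and 0.32 in PT 7 d LEV, against -0.02 in PT 1 m and -0.08 in PT 7 d, a gap of 0.21, on 48 to 71 reads per library, and limma gave this gap an SE of 0.24 and an adjusted p of 0.935.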

How the results depend on the processing

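By side, all 10 members kept their direction in 120 of 120 values over 12 alternatives. DESeq2 called 14 genes and 3 members, and leaving out a pair gave 0 to 50 genes and 0 to 3 members. For LEV, 3 genes became 0 with TMM scaling, a pseudocount of 5, no filter, no variance trend or edgeR, 1 with DESeq2 or 8 libraries as independent, 12 with a pseudocount of 0.5, 6 on the infarcted and 52 on the non-infarcted side, and 0 to 62 when a library was left out. Members called for LEV (Lcn2) numbered 1 with a pseudocount of 0.5 or the infarcted side only, and 0 to 1 when a library was left out. For time, 2537 genes became 334 with TMM, 24 with no filter, 657 with edgeR, 818 with DESeq2, 4991 with 8 libraries as independent and 1061 to 2392 when a library was left out. The 6 members became 0 with TMM, no filter or edgeR, 2 with DESeq2, 1 on the non-infarcted side and 1 to 7 when a library was left out. The LEV test of side differences called 1 gene with TMM and 27 with time and LEV together.

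Directions reversed for LEV on the non-infarcted side alone for Vim (0.0348), Serpina3n (0.0234), Thbs4 (0.11), Lgals3bp (-0.0401) and Cd44 (0.17). When a library was left out, its condition rested on 1 side, which by construction moved LEV and time values by part of the side difference. LEV values then ran between -0.42 and 0.32 for Vim, -0.27 and 0.0621 for Serpina3n, -0.29 and 0.23 for Thbs4, -0.16 and 0.19 for Lgals3bp, and -0.52 and 0.0746 for Cd44. Time values then ran between -0.0895 and 0.0688 for Nes, -1.17 and 0.0615 for Lcn2, -0.20 and 0.13 for Serpina3n, and -0.52 and 0.0006 for Thbs4. These left-out ranges say nothing about LEV or time. Time reversed for Nes with TMM (0.0369), edgeR (0.0416), DESeq2 (0.0438) and the non-infarcted side (0.0516), and for Serpina3n with TMM (0.0273) and the non-infarcted side (0.18). The LEV test of side differences reversed for Fabp7 with TMM (0.0125). The cause of the reversals without a left-out library was not tested. Depth limits Nes and Lcn2 most, with 35 to 84 and 10 to 229 reads per library. Side was compared within the pair of each condition, and the labels carry no replicate numbers that would pair libraries in the LEV and time comparisons.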
